A study of Mus musculus with 9 samples.

Results

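A set of 59 genes of the cell cycle and mitosis was examined in the epidermis of mouse ears, where 9 RNA sequencing libraries had been counted over 52550 genes. The genes were taken by symbol, all 59 matched 1 row of the count table, and they spanned cyclins and cyclin-dependent kinases, CDK inhibitors, transcription factors of the cycle, origin licensing and replication, nucleotide supply, mitotic kinases and the spindle checkpoint, partners of the anaphase promoting complex, and the machinery of chromosomes, spindle and cytokinesis. All mice were wild type, of 8 weeks and of strain C57BL/6 by the labels (C57BL/6J in the methods), and each of the 3 groups had 3 libraries. Control mice (VAS + H2O) had Vaseline on the ears for 5 days and water by gavage for 10 days. Model mice (IMQ + H2O) had imiquimod cream, an agonist of the innate receptor TLR7 that brings about a psoriasis-like dermatitis, in place of Vaseline, again with water by gavage. Treated mice (IMQ + XYF) had imiquimod cream and 200 µl of a decoction of Xiao-Yin-Fang (XYF, a herbal formula) at 23.3 mg/g by gavage in place of water. The labels and methods give gavage as once daily, and other text of the study gives it as more frequent. Gavage began 5 days before the cream, so the XYF mice had been dosed before the dermatitis began. The methods name epidermal sheets from 2 mice without saying whether this was per library, so p-values measure the spread between libraries, which may be technical. XYF without imiquimod was not among the groups.

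A dividing cell licenses its origins of replication in G1 by loading the MCM helicase, fires them in S phase while enzymes of nucleotide synthesis supply the building blocks, and in G2 and mitosis builds a spindle, checks that each chromosome is attached and splits. Cyclins with their CDKs drive these steps, CDK inhibitors restrain them, and E2F, B-Myb and FoxM1 switch the genes on in waves. In resting epidermis division is largely kept to the basal layer, and psoriatic epidermis is known for a raised number of dividing keratinocytes. Most transcripts of the cycle are made in cycling cells, and in bulk tissue a change in the number of cycling cells and a change in RNA per cell cannot be told apart.

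Total counts ran from 30298275 to 64771160 per library, and a count of 3, taken as the floor, was worth 0.0463 to 0.0990 CPM (counts brought to a common library size, here scaled by TMM). A floor of this kind covers counting error only. Only Cdkn2a did not pass the low-count filter, with 0 counts in 7 libraries and 3 and 6 counts in IMQ + H2O replicates 2 and 3, so 58 of the 59 genes were tested. The lowest count of any other member in any library was 49, for Cdkn3. Markers of basal keratinocytes (7 of 7 detected in every library) summed to 17762 to 22921 CPM under VAS + H2O, 22137 to 25502 under IMQ + H2O and 23491 to 25095 under IMQ + XYF. Their mean log2(CPM + 0.5) was 10.70, 10.57 and 10.61 in the same order. Under imiquimod the 7 were mixed, with log2 fold changes of -2.10 to 0.72. At an adjusted p of at most 0.05 (edgeR) 1 rose and 2 fell, where 12.7% of all genes rose and 9.41% fell. 1 control library, VAS + H2O replicate 2, stood apart by other tissue: the 6 dermal fibroblast markers summed to 66.3, 624 and 99.8 CPM in replicates 1 to 3 of VAS + H2O, against 44.6 to 51.7 under IMQ + H2O and 69.7 to 202 under IMQ + XYF, and none of the 6 was at 0 in any library. The 6 cartilage markers summed to 176, 424 and 195 CPM under VAS + H2O, 34.7 to 75.2 under IMQ + H2O and 127 to 185 under IMQ + XYF, with Matn3 at 0 in 3 IMQ + H2O and 2 IMQ + XYF libraries. The 5 neutrophil markers summed to 10.7 to 12.7 CPM in VAS + H2O and to 49.4, 51.7 and 135 CPM in replicates 1 to 3 of IMQ + H2O. They summed to 62.5 to 85.0 CPM in the XYF group. Ly6g, Retnlg and Mpo were at 0 in all 3 VAS + H2O libraries, and Csf3r in 1. Ly6g and Mpo were each also at 0 in 2 IMQ + H2O libraries and 1 IMQ + XYF library, and Retnlg in 1 IMQ + H2O library. The part of these tissues in the results below was not tested. Total counts of called members in edgeR are given with and without VAS + H2O replicate 2. Calls on the other gene lists, on the markers and in DESeq2 are given with it only.

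Promoters are shown first because the members differ in the motifs they carry, and the results below are ordered by the same roles. Promoter windows of 300 bases (250 before to 50 after the start of the gene) came from RefSeq on GRCm38.p6 and were found for 48 of the 59 members. As background, the cell cycle genes homology region (CHR) beside CCAAT boxes is a known arrangement in promoters of genes that peak in G2 and mitosis, and E2F motifs are known from genes of the G1/S transition. The letters searched on both strands were TTTGAA or TTCGAA for CHR, CCAAT as such, and for E2F the letters TTCCCGC or TTGGCGC, and an E2F match on 1 strand can overlap a CCAAT match on the other. A gene with several windows was counted once if any of them held the motif. CHR letters were in 24 of the 48 members (50%) against 19.2% of all 32851 RefSeq windows, CCAAT in 35 (72.9%) against 37.4%, and the E2F letters in 14 (29.2%) against 6.81%. CHR and CCAAT together, at any distance within a window, were in 23 members, against 7.52% of all windows. Of 10 chromosome, spindle and cytokinesis genes with a window, 8 held CHR letters and 1 held E2F letters. Of 10 origin licensing and replication genes, 3 held CHR letters and 6 held E2F letters. Mitotic kinases and checkpoint genes held CHR in 5 of 7 and E2F in 1 of 7, and the 4 nucleotide supply genes held no CHR letters. A match is a description of letters, not a site.

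**Figure D1:**
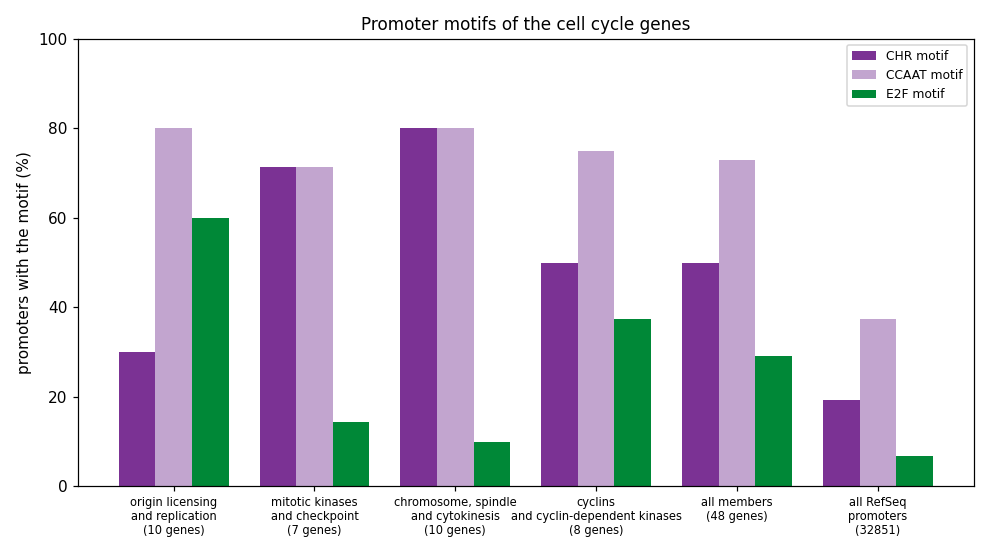
Share of promoter windows (%, vertical axis) that hold the CHR, CCAAT and E2F letters in 4 role groups, in all 48 members with a window and in all 32851 RefSeq windows. CHR letters were in 80% of the chromosome, spindle and cytokinesis genes and 30% of the replication genes, E2F letters in 10% and 60%, and over all windows they were in 19.2% and 6.81%.

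The stretches printed here lie before the start of the gene, hold no annotated exon and are written 5′ to 3′ on the strand of the gene, with the matched letters in capitals (a motif on the other strand is capitalized as its reverse complement) and positions counted from the start. Cdk1, Ccnb1, Mcm2, Mcm5 and Cdc6 are there as the CDK1-cyclin pair and replication genes, and the exon-free stretches of Cdt1 and Pcna held no match and are not printed. Mki67, Top2a, Kif11, Cdc20 and E2f8 were added after their motifs were seen, to show CHR and CCAAT letters in the same stretch. In E2f8 these lie well apart, at -20 and -112, and so do those of Mcm2, at -70 and -175.
Cdk1 (chr10:69352939-69353112, minus strand, bases -200 to -27): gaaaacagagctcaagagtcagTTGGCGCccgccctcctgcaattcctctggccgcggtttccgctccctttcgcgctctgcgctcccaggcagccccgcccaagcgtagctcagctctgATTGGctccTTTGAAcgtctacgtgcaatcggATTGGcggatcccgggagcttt
Ccnb1 (chr13:100786571-100786686, minus strand, bases -200 to -85): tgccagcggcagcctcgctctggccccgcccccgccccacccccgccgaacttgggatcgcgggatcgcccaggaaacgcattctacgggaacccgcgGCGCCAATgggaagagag
Mcm2 (chr6:88898781-88898980, minus strand, bases -200 to -1): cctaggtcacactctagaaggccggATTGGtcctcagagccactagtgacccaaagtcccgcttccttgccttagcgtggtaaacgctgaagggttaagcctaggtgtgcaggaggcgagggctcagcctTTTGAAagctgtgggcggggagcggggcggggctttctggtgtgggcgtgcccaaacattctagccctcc
Mcm5 (chr8:75109309-75109508, plus strand, bases -200 to -1): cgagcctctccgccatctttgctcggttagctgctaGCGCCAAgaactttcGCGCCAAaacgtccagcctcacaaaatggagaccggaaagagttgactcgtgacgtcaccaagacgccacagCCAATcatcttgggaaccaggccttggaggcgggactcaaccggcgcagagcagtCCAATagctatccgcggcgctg
Cdc6 (chr11:98907982-98908150, plus strand, bases -169 to -1): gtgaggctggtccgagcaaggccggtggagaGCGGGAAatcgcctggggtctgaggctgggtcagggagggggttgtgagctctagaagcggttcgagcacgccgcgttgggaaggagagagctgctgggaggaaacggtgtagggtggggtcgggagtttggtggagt
Mki67 (chr7:135716380-135716579, minus strand, bases -200 to -1): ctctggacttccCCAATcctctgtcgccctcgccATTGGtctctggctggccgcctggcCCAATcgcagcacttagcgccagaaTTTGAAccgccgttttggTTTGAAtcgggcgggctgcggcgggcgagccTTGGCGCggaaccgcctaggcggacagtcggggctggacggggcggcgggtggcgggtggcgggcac
Top2a (chr11:99024190-99024389, minus strand, bases -200 to -1): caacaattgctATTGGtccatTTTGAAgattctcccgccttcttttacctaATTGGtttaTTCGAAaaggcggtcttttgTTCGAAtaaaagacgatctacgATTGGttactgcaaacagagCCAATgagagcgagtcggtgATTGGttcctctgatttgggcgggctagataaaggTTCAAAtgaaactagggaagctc
Kif11 (chr19:37376182-37376381, plus strand, bases -200 to -1): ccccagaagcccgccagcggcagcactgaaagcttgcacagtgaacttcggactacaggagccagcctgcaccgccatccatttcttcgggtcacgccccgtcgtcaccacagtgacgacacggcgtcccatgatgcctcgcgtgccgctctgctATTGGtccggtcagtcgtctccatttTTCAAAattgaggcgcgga
Cdc20 (chr4:118437353-118437543, minus strand, bases -200 to -10): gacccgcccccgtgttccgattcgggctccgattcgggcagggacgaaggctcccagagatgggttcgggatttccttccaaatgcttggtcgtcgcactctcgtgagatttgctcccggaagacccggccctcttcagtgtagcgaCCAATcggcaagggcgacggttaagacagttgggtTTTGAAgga
E2f8 (chr7:48881597-48881796, minus strand, bases -200 to -1): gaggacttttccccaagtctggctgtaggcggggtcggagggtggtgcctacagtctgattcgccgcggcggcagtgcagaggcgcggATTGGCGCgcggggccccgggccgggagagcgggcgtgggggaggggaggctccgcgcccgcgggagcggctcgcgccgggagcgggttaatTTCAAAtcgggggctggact

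Each stretch is short of the 300 bases searched, so the Ccnb1 run shows 1 of the 2 CCAAT matches of its window and the Top2a run 4 CHR matches and 5 of its 6 CCAAT matches. In the Ccnb1 and E2f8 runs the E2F letters and a CCAAT share bases. Mcm2 held CHR and CCAAT letters and Mcm5 held E2F and CCAAT letters, so the replication genes were not of 1 kind.

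The first comparison, IMQ + H2O against VAS + H2O, asks what the cream does to the cycle in epidermis. Cell cycle genes were mostly higher: 23 of the 58 tested members rose and 2 fell (Ccnd2 and Cdkn1b) at an adjusted p of at most 0.05 (edgeR), where 22.1% of all 18009 genes tested passed, 12.7% higher and 9.41% lower. Of the 23, 18 were differentially expressed genes (DEGs), past the test with at least a 2-fold change, where 7.68% of all genes were DEGs, 3.64% higher and 4.04% lower. The log2 fold change was above 0 in 55 of 58 members, against 47.6% of all genes, with a median of 0.96 against -0.03 over all genes. In 41 of 58 members the 3 IMQ + H2O libraries did not overlap the 3 VAS + H2O libraries, while 45.0% of all genes had no overlap, 23.4% higher and 21.6% lower. Members took 0.212% to 0.283% of all counts under VAS + H2O, 0.305% to 0.393% under IMQ + H2O and 0.357% to 0.420% under IMQ + XYF. Without VAS + H2O replicate 2, 15 members passed (7.77% of all genes did) and 8 were DEGs (3.85%). The DEG count was also 8 without VAS + H2O replicate 1 (4.68% of all genes) and without IMQ + H2O replicate 3 (3.86%), while 16 (9.73% of all genes) and 15 (11.6%) members passed the adjusted p.

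**Figure D2:**
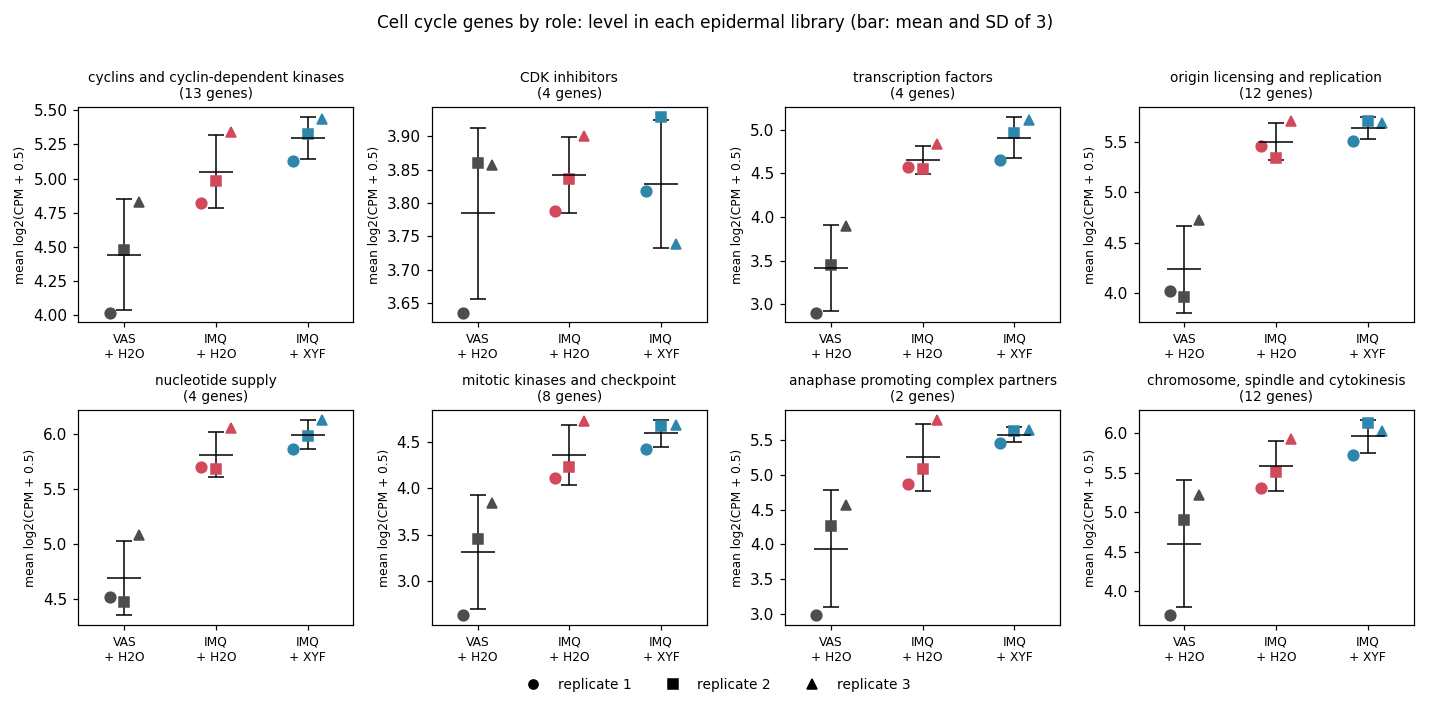
Mean log2(CPM + 0.5) of each role group (vertical axis, not starting at 0) in the 9 libraries, with replicates 1, 2 and 3 as circle, square and triangle and the mean and SD of 3 as bars. Origin licensing and replication genes had 4.23 ± 0.43 under VAS + H2O, 5.50 ± 0.18 under IMQ + H2O and 5.64 ± 0.11 under IMQ + XYF, and the wide bars of the mitotic groups are in VAS + H2O.

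Origin licensing and replication was the role group in which every member passed. All 12 genes rose under imiquimod and 9 were DEGs, with a median log2 fold change of 1.18 and a range of 0.79 to 1.87. Mcm2 (ENSMUSG00000002870, chr6:88883474-88898780), a subunit of the MCM helicase, had 26.2, 18.8 and 43.8 CPM under VAS + H2O, 83.0, 75.3 and 97.5 under IMQ + H2O and 93.2, 101 and 101 under IMQ + XYF, replicates 1 to 3 being given in order, as throughout. The lowest IMQ + H2O library was above the highest control, and Mcm2 rose by a log2 fold change of 1.52 (SE 0.29, adjusted p = 0.0165). Mcm5, a further subunit, had 24.0, 21.3 and 45.1 CPM under VAS + H2O, 84.4, 86.5 and 109 under IMQ + H2O and 92.3, 105 and 111 under IMQ + XYF. It was 1.62 higher on the log2 scale under imiquimod (SE 0.29, adjusted p = 0.0137), with no overlap between the groups. The other MCM subunits followed, with 20.2, 21.1 and 36.9 CPM in VAS + H2O against 75.6, 64.3 and 100.2 CPM in IMQ + H2O for Mcm3 and 30.04, 29.96 and 40.4 against 70.1, 62.0 and 75.5 CPM for Mcm7. Mcm7 had the smallest adjusted p of all members, at a log2 fold change of 1.03 (SE 0.14, adjusted p = 0.00864). Mcm4 and Mcm6 rose by less than 2-fold, by 0.96 and 0.95 on the log2 scale.

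The loading factors of the helicase moved with it. Cdc6, which with Cdt1 loads MCM on origins, had 2.86, 2.58 and 5.99 CPM under VAS + H2O, 8.12, 8.19 and 11.1 under IMQ + H2O and 8.74, 11.5 and 10.7 under IMQ + XYF. Its log2 fold change under imiquimod was 1.25 (SE 0.35, adjusted p = 0.0432), and VAS + H2O replicate 3 was the nearest control to the model libraries. Cdt1 had 8.36, 8.47 and 14.1 CPM under VAS + H2O, 24.3, 16.7 and 21.4 under IMQ + H2O and 17.3, 23.3 and 21.8 under IMQ + XYF, and rose by 1.002 on the log2 scale (SE 0.25, adjusted p = 0.0314). Geminin (Gmnn), which inhibits Cdt1 after origins have fired, had 4.19, 3.58 and 7.46 CPM under VAS + H2O, 10.6, 11.96 and 15.8 under IMQ + H2O and 14.2, 16.9 and 15.8 under IMQ + XYF. It rose by 1.33 on the log2 scale (SE 0.30, adjusted p = 0.0261), so the loader and its inhibitor were both higher. Mcm10 and Cdc45, which activate the helicase at the fork, had 3.004, 3.92 and 8.00 and 7.15, 8.96 and 11.5 CPM in VAS + H2O against 17.7, 14.6 and 22.4 and 19.2, 19.5 and 21.5 CPM in IMQ + H2O. Mcm10 changed most within the group, by 1.87 on the log2 scale (SE 0.38, adjusted p = 0.0184), and Cdc45 by 1.12 (SE 0.18, adjusted p = 0.012). Pcna, the sliding clamp of DNA polymerases, had 76.0, 70.0 and 96.9 CPM under VAS + H2O, 142, 126 and 157 under IMQ + H2O and 159, 159 and 169 under IMQ + XYF. It changed least, by 0.79 on the log2 scale (SE 0.14, adjusted p = 0.014), again without overlap. Of the 12, 7 passed the adjusted p without VAS + H2O replicate 1, VAS + H2O replicate 2 or IMQ + H2O replicate 3. In each of the 6 fits that left out 1 library all 12 kept an unadjusted p under 0.05. With all 6 libraries 37.9% of all genes had an unadjusted p under 0.05, and the share in the fits without 1 library is not given here. The call on Cdc6 was lost without any library but VAS + H2O replicate 3 (adjusted p = 0.0740 to 0.121) and with no low-count filter (0.054). Cdt1 lost its call in 4 of the 6 fits (adjusted p = 0.0799 to 0.0990), holding without VAS + H2O replicate 3 or IMQ + H2O replicate 2. Gmnn also lost it in 4 (0.0519 to 0.0816), holding without VAS + H2O replicate 3 or IMQ + H2O replicate 1. Mcm6 did not pass without VAS + H2O replicate 1, VAS + H2O replicate 2 or IMQ + H2O replicate 3, Mcm10 without VAS + H2O replicate 2 or IMQ + H2O replicate 3, and Mcm2 without VAS + H2O replicate 1 (adjusted p = 0.0522 to 0.0654).

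Enzymes of nucleotide supply were higher as well, with 3 of 4 past the test. Rrm2, the subunit of ribonucleotide reductase that is made in S phase, had 14.5, 14.5 and 24.9 CPM under VAS + H2O, 56.7, 64.0 and 98.4 under IMQ + H2O and 73.7, 73.7 and 84.3 under IMQ + XYF. It shared the largest change of all members with cyclin E1, a log2 fold change of 2.01 (SE 0.29, adjusted p = 0.00927). Rrm1, the large subunit, had 65.2, 63.1 and 91.3 CPM under VAS + H2O, 145, 147 and 170.1 under IMQ + H2O and 159, 175 and 183 under IMQ + XYF, and rose by 1.06 on the log2 scale (SE 0.16, adjusted p = 0.00938). Thymidine kinase Tk1 rose by 0.81 on the log2 scale (SE 0.20, adjusted p = 0.0301), from 22.9 ± 5.86 to 40.5 ± 6.18 CPM (SD, n = 3), a call lost without any library but VAS + H2O replicate 3 (adjusted p = 0.0518 to 0.0932). Thymidylate synthase Tyms had 13.2, 12.6 and 18.0 CPM under VAS + H2O, 23.5, 18.5 and 23.3 under IMQ + H2O and 22.6, 25.4 and 32.7 under IMQ + XYF. Its groups did not overlap, yet its log2 fold change of 0.56 (SE 0.17, adjusted p = 0.0593) missed the threshold.

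Among the transcription factors, E2f8 and Mybl2 rose and E2f1 and Foxm1 did not pass. E2f8, an atypical E2F that represses E2F targets, had 7.76, 15.3 and 17.2 CPM under VAS + H2O, 38.4, 40.2 and 60.8 under IMQ + H2O and 43.4, 42.0 and 47.9 under IMQ + XYF. It rose by 1.78 on the log2 scale (SE 0.33, adjusted p = 0.0147), with IMQ + H2O replicate 3 above the other 2 model libraries. Mybl2 (B-Myb), which with the MuvB complex acts on CHR promoters, had 6.01, 5.77 and 10.0 CPM under VAS + H2O, 20.8, 18.9 and 27.9 under IMQ + H2O and 20.6, 25.9 and 28.2 under IMQ + XYF. It rose by 1.62 on the log2 scale (SE 0.26, adjusted p = 0.0114) and its groups did not overlap. E2f1, an activating E2F, had 6.56, 7.10 and 11.7 CPM under VAS + H2O, 17.1, 15.3 and 10.9 under IMQ + H2O and 17.3, 17.6 and 21.2 under IMQ + XYF, with IMQ + H2O replicate 3 below the highest control. Foxm1, which drives genes of G2 and mitosis, had 7.85, 18.3 and 21.2 CPM under VAS + H2O, 21.7, 23.5 and 33.2 under IMQ + H2O and 23.6, 45.7 and 46.9 under IMQ + XYF. The log2 fold changes of E2f1 and Foxm1 were 0.76 (SE 0.27, adjusted p = 0.0864) and 0.72 (SE 0.36, adjusted p = 0.198).

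Cyclins E1 and E2, partners of CDK2 at the entry to S phase, rose, and so did the D-type partner Cdk4, while cyclin D2 fell, against the other called members of its group. Ccne1 (ENSMUSG00000002068, chr7:38097984-38107534) had 2.54, 1.73 and 3.76 CPM under VAS + H2O, 9.61, 9.15 and 13.9 under IMQ + H2O and 11.99, 11.2 and 12.1 under IMQ + XYF. Every model library was over 2 times the highest control, and Ccne1 rose by 2.01 on the log2 scale (SE 0.32, adjusted p = 0.0106). Ccne2 had 7.43, 6.83 and 9.87 CPM under VAS + H2O, 15.7, 15.3 and 18.3 under IMQ + H2O and 15.2, 14.9 and 17.4 under IMQ + XYF, and rose by 1.02 on the log2 scale (SE 0.17, adjusted p = 0.0122). Ccnd2 (ENSMUSG00000000184, chr6:127125162-127152193), which pairs with CDK4 and CDK6 in G1, had 537, 443 and 465 CPM under VAS + H2O, 249, 338 and 228 under IMQ + H2O and 269.7, 307 and 311 under IMQ + XYF. All 6 libraries with imiquimod were below all 3 controls, and Ccnd2 fell with a log2 fold change of -0.84 (SE 0.16, adjusted p = 0.0162). Its adjusted p was 0.0527 without VAS + H2O replicate 1 and 0.0603 without IMQ + H2O replicate 1. Ccnd1, the other D-type cyclin of the set, had 135, 103 and 127 CPM under VAS + H2O, 104, 112 and 109 under IMQ + H2O and 119, 126 and 127 under IMQ + XYF, the 3 groups overlapping apart from IMQ + H2O against IMQ + XYF. Its change was -0.18 on the log2 scale (SE 0.11, adjusted p = 0.259). Cdk4 had 67.8, 60.4 and 68.8 CPM under VAS + H2O, 96.2, 94.7 and 107 under IMQ + H2O and 97.7, 100.1 and 117 under IMQ + XYF, and rose by 0.58 on the log2 scale (SE 0.09, adjusted p = 0.00957). CPM per kilobase of exon sets levels of different genes side by side only roughly, as all annotated exons are counted in the length. On this scale Ccnd2 was at 51.2 ± 5.26, Ccnd1 at 25.9 ± 3.50, Ccne1 at 1.01 ± 0.383 and Ccne2 at 2.30 ± 0.460 in VAS + H2O (SD, n = 3). In IMQ + H2O these 4 were at 28.9 ± 6.17, 23.0 ± 0.916, 4.09 ± 0.982 and 4.71 ± 0.459.

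The cyclins and kinase of G2 and mitosis were higher in mean but did not pass. Ccna2, active from S phase to early mitosis, had 12.5, 28.0 and 36.2 CPM under VAS + H2O, 45.1, 55.0 and 74.7 under IMQ + H2O and 64.4, 82.8 and 73.0 under IMQ + XYF. Cdk1, the kinase of mitotic entry, had 7.38, 16.03 and 21.7 CPM under VAS + H2O, 25.8, 32.2 and 53.1 under IMQ + H2O and 38.4, 44.9 and 54.2 under IMQ + XYF. For both genes the model libraries lay above the controls, and the log2 fold changes were 1.18 (SE 0.38, adjusted p = 0.0688) and 1.29 (SE 0.43, adjusted p = 0.0715). Cyclin B1 (Ccnb1), the partner of Cdk1, had 8.08, 16.8 and 23.1 CPM under VAS + H2O, 22.1, 27.4 and 35.8 under IMQ + H2O and 35.9, 36.3 and 39.6 under IMQ + XYF, with IMQ + H2O replicate 1 just below VAS + H2O replicate 3. Its change was 0.82 on the log2 scale (SE 0.37, adjusted p = 0.156). The other 5 of the group (Ccnb2, Ccnf, Cdk2, Cdc25b and Cdc25c) had log2 fold changes of 0.07 to 0.73 and overlapping groups.

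Of the CDK inhibitors, Cdkn1b fell and no other passed. Cdkn1b (ENSMUSG00000003031, chr6:134920401-134925513), the gene of p27, which holds CDK2 in check in resting cells, had 98.1, 74.4 and 58.2 CPM under VAS + H2O, 52.97, 43.5 and 31.6 under IMQ + H2O and 38.4, 44.4 and 32.0 under IMQ + XYF. The lowest control was above every library with imiquimod, and Cdkn1b fell with a log2 fold change of -0.86 (SE 0.24, adjusted p = 0.0453). This call was lost when any library but VAS + H2O replicate 3 was left out (adjusted p = 0.0574 to 0.122) and with no low-count filter (0.0625). Cdkn1a, the gene of p21 and a target of p53, had 315, 344 and 372 CPM under VAS + H2O, 392, 365 and 366 under IMQ + H2O and 378, 346 and 319 under IMQ + XYF. Per kilobase of exon it was at 96.8 ± 8.07 CPM in VAS + H2O, above Cdkn1b at 16.9 ± 4.41, and its groups overlapped, at 0.11 on the log2 scale (SE 0.09, adjusted p = 0.417). Cdkn3, a phosphatase that acts on CDKs, was at 2.503 ± 1.303 CPM in VAS + H2O and 4.36 ± 1.62 CPM in IMQ + H2O (SD, n = 3) and did not pass. Cdkn2a, the locus of p16 and ARF, was at 0 counts in 7 libraries and at 0.0780 and 0.139 CPM in IMQ + H2O replicates 2 and 3.

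**Figure D3:**
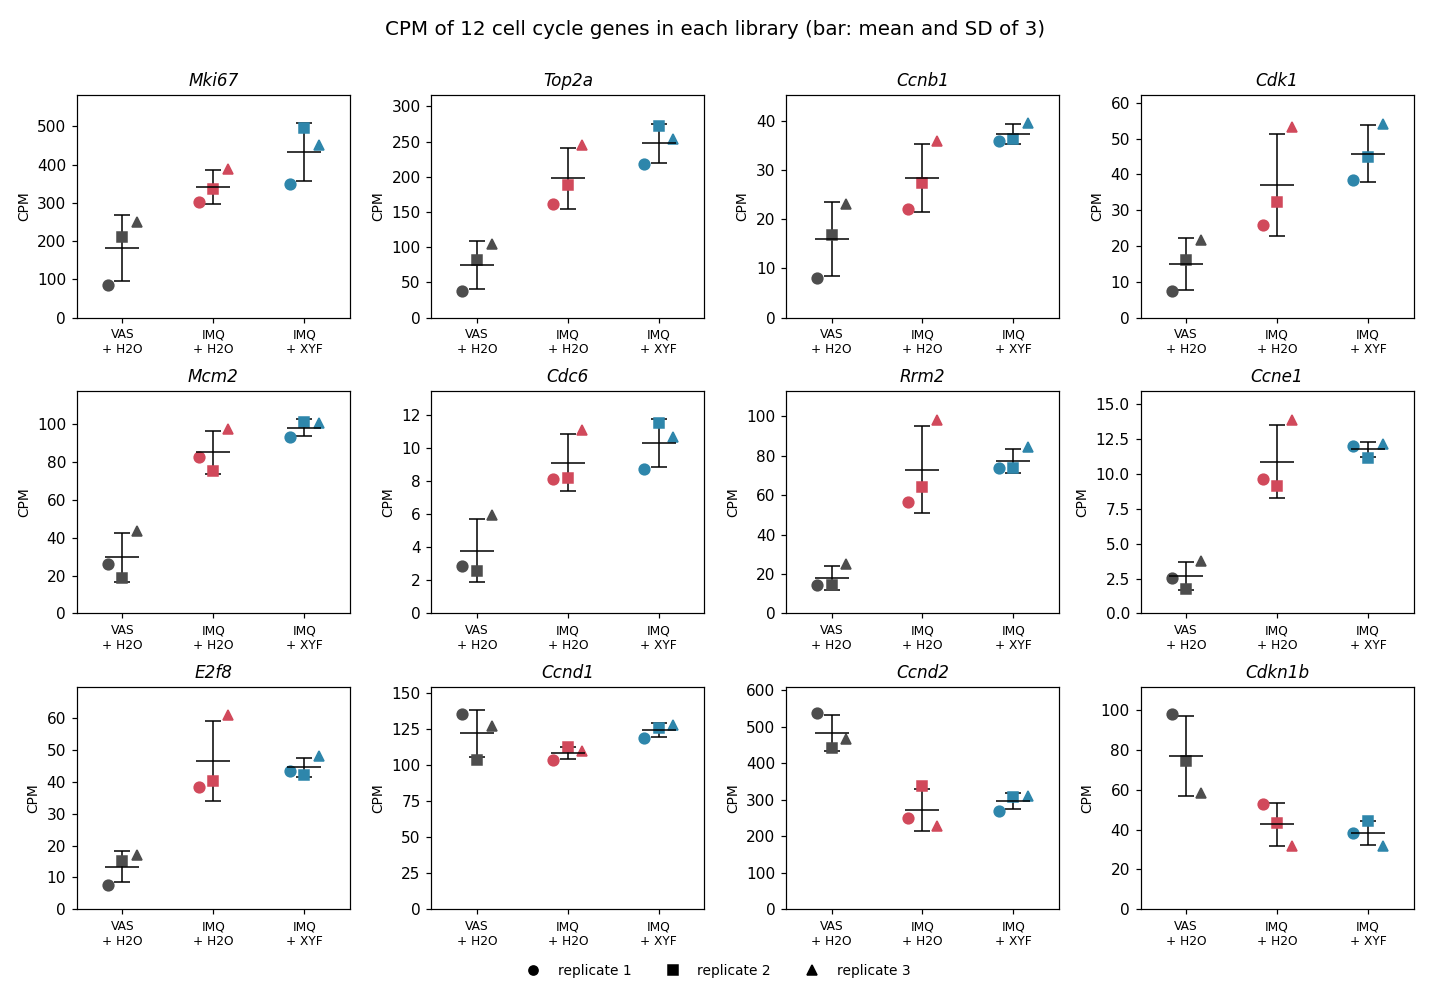
CPM (vertical axis, from 0) of 12 members in the 3 groups, with replicates 1, 2 and 3 as circle, square and triangle and the mean and SD of 3 as bars. Mcm2, Cdc6, Rrm2, Ccne1 and E2f8 show model libraries above all controls, Ccnd2 and Cdkn1b model libraries below all controls, and Mki67 controls spread from 86.0 to 251.2 CPM.

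Genes of mitosis were higher in mean, and most did not pass. Of the 8 mitotic kinases and checkpoint genes, 1 passed (Chek1), at a median log2 fold change of 1.03, and of the 12 genes of chromosomes, spindle and cytokinesis 2 passed (Top2a and Tpx2), at a median of 0.88. Chek1, which guards replication rather than the spindle, had 2.81, 3.37 and 6.20 CPM under VAS + H2O, 10.99, 9.28 and 12.9 under IMQ + H2O and 10.7, 10.1 and 12.9 under IMQ + XYF, and rose by 1.41 on the log2 scale (SE 0.31, adjusted p = 0.0239). Plk1, a kinase of mitotic entry and spindle assembly, had 4.34, 13.2 and 14.6 CPM under VAS + H2O, 20.5, 21.1 and 37.8 under IMQ + H2O and 25.3, 34.5 and 34.1 under IMQ + XYF. Aurkb, the kinase of the chromosomal passenger complex, had 3.66, 9.87 and 11.2 CPM under VAS + H2O, 16.4, 16.8 and 27.0 under IMQ + H2O and 18.7, 23.5 and 23.0 under IMQ + XYF. Both had their lowest value in VAS + H2O replicate 1, and their changes of 1.29 on the log2 scale (SE 0.47, adjusted p = 0.0917) and 1.27 (SE 0.42, adjusted p = 0.0734) did not pass. Bub1, a kinase of the spindle checkpoint, had 3.07, 6.28 and 8.29 CPM under VAS + H2O, 9.68, 12.7 and 16.2 under IMQ + H2O and 15.2, 17.3 and 18.4 under IMQ + XYF, with a change of 1.12 on the log2 scale (SE 0.37, adjusted p = 0.0737). The remaining 4 of the group (Aurka, Bub1b, Mad2l1 and Ttk) had log2 fold changes of 0.36 to 0.95. Cdc20, which activates the anaphase promoting complex, had 11.4, 29.4 and 36.3 CPM under VAS + H2O, 40.4, 47.0 and 77.2 under IMQ + H2O and 58.1, 66.8 and 65.2 under IMQ + XYF. It and the ubiquitin-conjugating enzyme Ube2c had no overlap between the groups, at 1.084 on the log2 scale (SE 0.44, adjusted p = 0.119) and 1.41 (SE 0.44, adjusted p = 0.06).

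Top2a (ENSMUSG00000020914, chr11:98992943-99024189), the topoisomerase that untangles chromosomes in G2 and mitosis, had 37.8, 81.8 and 105 CPM under VAS + H2O, 161, 188 and 246 under IMQ + H2O and 218, 272 and 254 under IMQ + XYF. It rose by 1.39 on the log2 scale (SE 0.36, adjusted p = 0.0365), with VAS + H2O replicate 1 the lowest of all 9 libraries. Tpx2, which activates Aurora A on the spindle, had 9.14, 20.4 and 24.3 CPM under VAS + H2O, 35.0, 40.1 and 55.6 under IMQ + H2O and 44.1, 58.8 and 52.96 under IMQ + XYF, and rose by 1.27 on the log2 scale (SE 0.36, adjusted p = 0.0472). Mki67 (ENSMUSG00000031004, chr7:135689784-135716361), the gene of the proliferation marker Ki-67, had 86.0, 211 and 251.2 CPM under VAS + H2O, 301, 335 and 388 under IMQ + H2O and 349, 497 and 452 under IMQ + XYF. All 3 model libraries were above all 3 controls, VAS + H2O replicate 1 lay far below the other 2 controls, and the change of 0.89 on the log2 scale (SE 0.36, adjusted p = 0.121) did not pass. Kif11, the motor that pushes spindle poles apart, had 10.2, 26.6 and 31.3 CPM under VAS + H2O, 46.9, 48.2 and 65.6 under IMQ + H2O and 58.7, 69.5 and 66.8 under IMQ + XYF. Birc5 (survivin), a chromosomal passenger, had 5.25, 10.5 and 12.2 CPM under VAS + H2O, 16.4, 18.5 and 28.7 under IMQ + H2O and 24.4, 28.6 and 28.4 under IMQ + XYF. Their changes were 1.23 on the log2 scale (SE 0.39, adjusted p = 0.0642) and 1.18 (SE 0.35, adjusted p = 0.053), just short of the call. The 7 others (Kif20a, Kif23, Cenpa, Cenpe, Cenpf, Anln and Hmmr) had log2 fold changes of 0.32 to 1.01 and did not pass. The calls on Top2a, Tpx2 and Chek1 did not hold without VAS + H2O replicate 2, IMQ + H2O replicate 1 or IMQ + H2O replicate 3 (adjusted p = 0.0588 to 0.129). Without VAS + H2O replicate 1, Tpx2 (0.0535) and Chek1 (0.0619) were lost too, and without IMQ + H2O replicate 2 so were Top2a (0.0687) and Tpx2 (0.0815). Tpx2 was also lost with no low-count filter (adjusted p = 0.0547). In contrast, Ccne1, Ccne2, Cdk4, E2f8, Mybl2, Mcm3, Mcm4, Mcm5, Mcm7, Cdc45, Pcna, Rrm1 and Rrm2 passed in each of the 6 fits without 1 library.

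The control libraries differed among themselves, most in the genes of mitosis. In VAS + H2O the highest library was a median of 2.86 times the lowest over the 12 chromosome, spindle and cytokinesis genes, 2.501 times over the 8 mitotic kinases and checkpoint genes and 1.76 times over the 12 replication genes, and these ratios were 1.58, 1.59 and 1.29 in IMQ + H2O and 1.37, 1.24 and 1.17 in IMQ + XYF. VAS + H2O replicate 1 was the lowest control in 12 of 12 chromosome, spindle and cytokinesis genes and in 8 of 8 mitotic kinases and checkpoint genes. For the replication genes VAS + H2O replicate 2 was the lowest in 8 of 12, and VAS + H2O replicate 3 was the highest control in 55 of all 58 tested members. The summed CPM of the chromosome, spindle and cytokinesis genes were 231, 549.9 and 670.4 under VAS + H2O, 769, 889.5 and 1119 under IMQ + H2O and 989, 1323 and 1216 under IMQ + XYF, so that VAS + H2O replicates 2 and 3 had 2.38 and 2.90 times the sum of replicate 1. For the replication genes the sums were 307, 279 and 452, 748, 687 and 874 and 790.2, 866 and 882 CPM, and the same 2 ratios were 0.912 and 1.47. Without VAS + H2O replicate 1, the median log2 fold change under imiquimod was 0.54 over the chromosome, spindle and cytokinesis genes, 0.74 over the mitotic kinases and checkpoint genes and 1.02 over the replication genes. The median SE of the log2 fold change was 0.39 for chromosome, spindle and cytokinesis genes, 0.34 for mitotic kinases and checkpoint genes and 0.26 for replication genes. Whether the role groups differ in their response was not tested. DESeq2 called 39 members in this comparison (25.0% of all genes it adjusted), among them 12 of 12 replication genes, 6 of 8 mitotic kinases and checkpoint genes and 5 of 12 chromosome, spindle and cytokinesis genes.

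**Figure D4:**
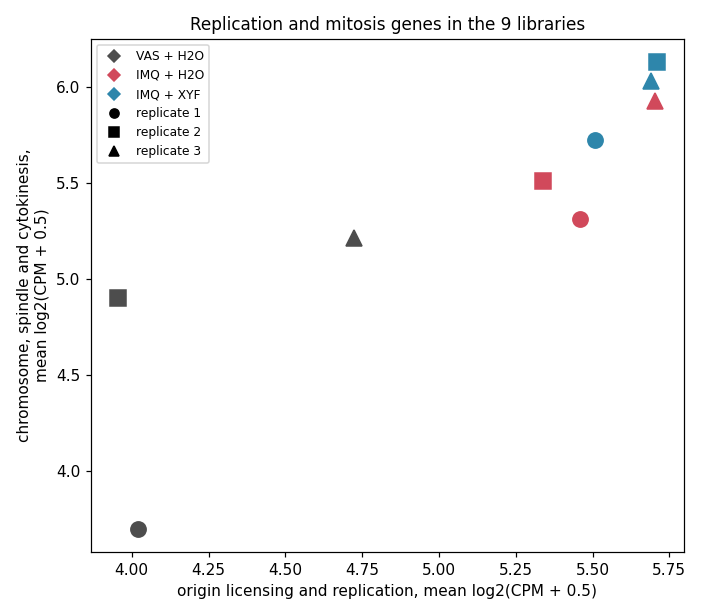
Mean log2(CPM + 0.5) of 12 chromosome, spindle and cytokinesis genes (vertical axis) against that of 12 origin licensing and replication genes (horizontal axis) in the 9 libraries, colored by group. The 6 libraries with imiquimod lie to the upper right, and VAS + H2O replicates 1 and 2 are close on the horizontal axis (4.02 and 3.95) and apart on the vertical (3.70 and 4.90).

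The second comparison, IMQ + XYF against IMQ + H2O, asks whether the formula alters the cycle genes of inflamed epidermis. No member passed the adjusted p in edgeR, where 5 of 17793 genes (0.0281%) did, and DESeq2 called no member either, where 0.966% of all genes it adjusted were called. An unadjusted p under 0.05 was found for 3 members in edgeR (Ccnd1, Cenpa and Bub1b), where 5.43% of all genes had one, and for 7 in DESeq2, where 3.60% of 29818 genes had one. Of the 58 log2 fold changes, 54 were above 0, against 50.1% of all genes, with a median of 0.22 against 0.00. The 4 below 0 were Cdkn1a, Cdkn1b, Ccne2 and E2f8. Of the 23 members that rose under imiquimod, 21 had a log2 fold change above 0 in IMQ + XYF against IMQ + H2O. Both comparisons use the same IMQ + H2O libraries.

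By role, the median log2 fold change with XYF was 0.35 for chromosome, spindle and cytokinesis genes, 0.21 for mitotic kinases and checkpoint genes, 0.14 for replication genes, 0.15 for nucleotide supply, 0.23 for cyclins and CDKs, 0.26 for transcription factors, 0.28 for anaphase promoting complex partners and -0.10 for CDK inhibitors. Ccnd1 had the smallest adjusted p, with every IMQ + XYF library above every IMQ + H2O library and a change of 0.20 on the log2 scale (SE 0.06, adjusted p = 0.751). In 4 of 58 members there was no overlap between the groups (Ccnd1, Ccnb1, E2f1 and Pcna), as in 10.7% of all genes, 5.99% higher and 4.67% lower. Mki67 was 0.35 (95% interval -0.01 to 0.71) higher on the log2 scale with XYF, and IMQ + XYF replicate 1 lay within the range of the model libraries. Top2a was at 0.33 on the log2 scale (95% interval -0.06 to 0.72), Mcm2 at 0.21 (95% interval -0.04 to 0.46) and Cdk1 at 0.31 (95% interval -0.33 to 0.95). Cenpa, the centromeric histone, had 5.20, 10.5 and 16.3 CPM under VAS + H2O, 12.6, 10.6 and 18.8 under IMQ + H2O and 16.3, 21.7 and 26.2 under IMQ + XYF. Bub1b, of the spindle checkpoint, had 10.7, 23.0 and 25.8 CPM under VAS + H2O, 31.7, 36.5 and 43.2 under IMQ + H2O and 40.4, 56.6 and 47.7 under IMQ + XYF. Their changes with XYF were 0.61 on the log2 scale (SE 0.26, adjusted p = 0.915) and 0.38 (SE 0.16, adjusted p = 0.917), both with overlapping libraries.

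The intervals show how large a fall could have gone unseen. For all 58 members the lower bound of the 95% interval of the log2 fold change, taken gene by gene, was above -1, and for 56 it was above -0.5, the exceptions being Ccnf and Cdkn1b. The lowest bound was -0.64, for Cdkn1b. On the upper side 53 members had a bound below 1, and Ccnb2, Cdk2, Cdkn3, Foxm1 and Cenpa did not. A rise of 2-fold in these 5 lay within the interval, while a fall of 2-fold lay outside the interval of each tested member. Single libraries mattered here too: IMQ + H2O replicate 3 was the highest model library in 51 of 58 members, and IMQ + XYF replicate 1 the lowest treated library in 50. Without IMQ + H2O replicate 3 the median log2 fold change was 0.41 and 38 members had an unadjusted p under 0.05 (10.1% of all genes did), and without IMQ + H2O replicate 1 these were 0.12 and 1 (4.69% of all genes). No member passed the adjusted p in any of these fits. The neutrophil markers were also highest in IMQ + H2O replicate 3 among all 9 libraries, at the 135 CPM given above, and their part in this was not tested.

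**Figure D5:**
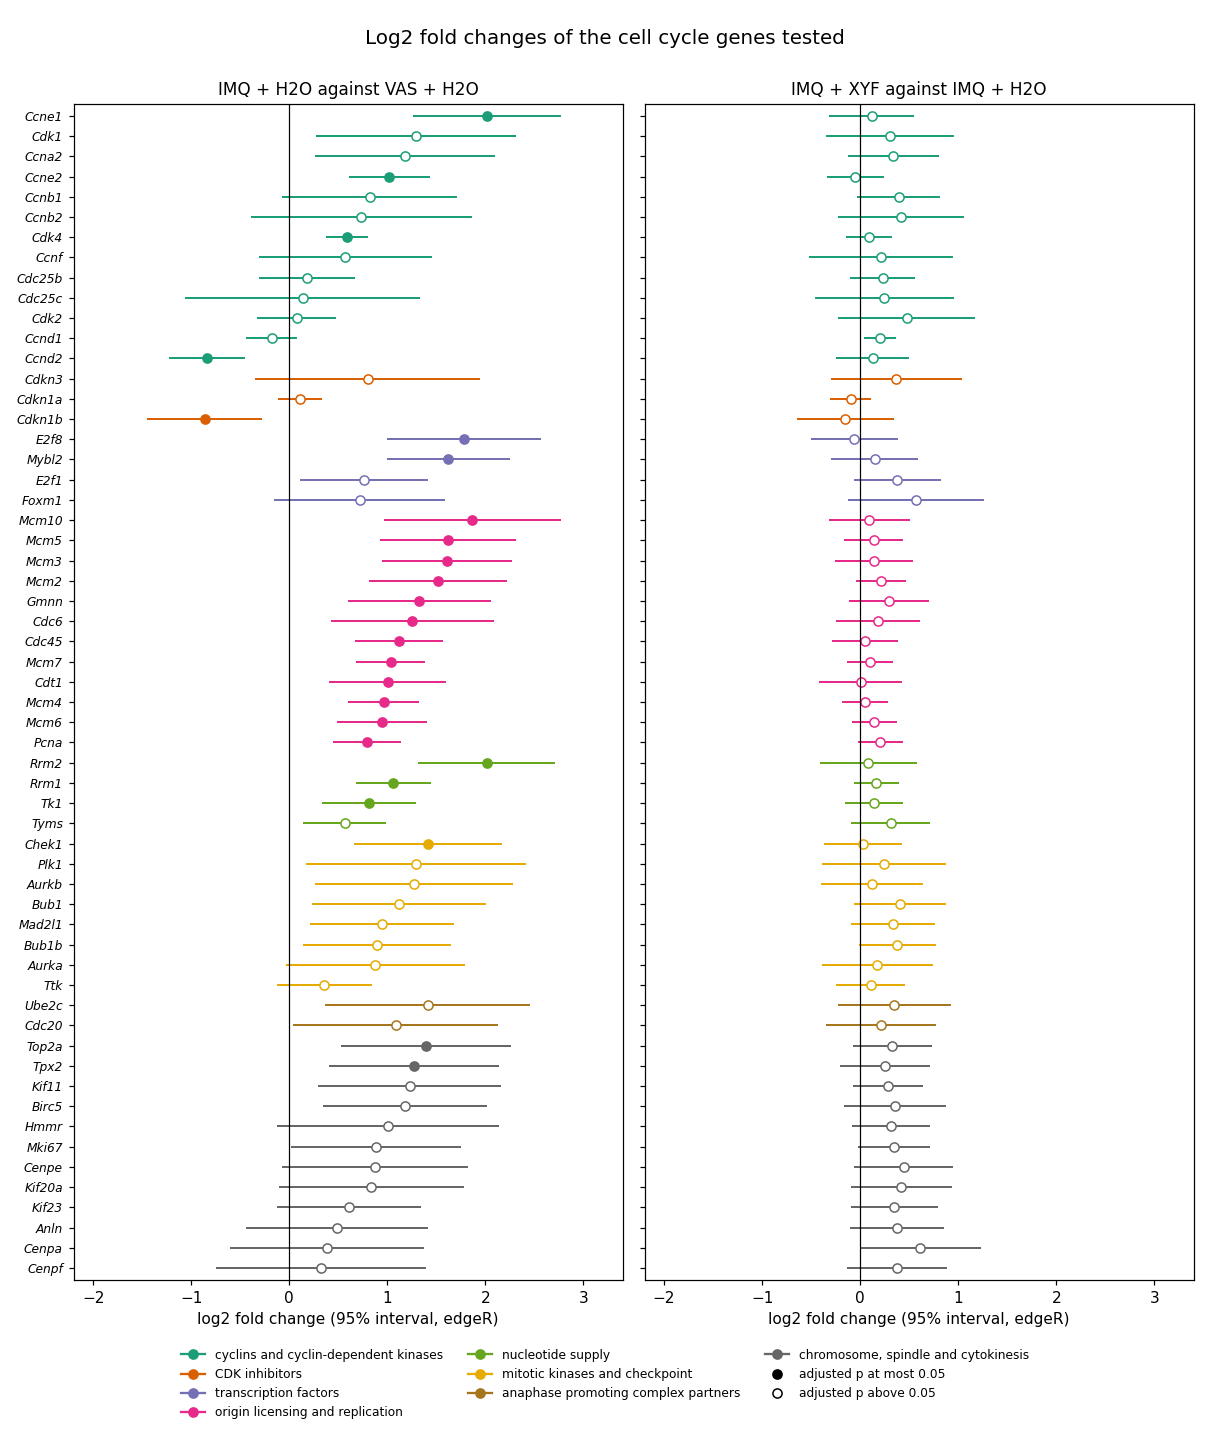
Log2 fold changes (horizontal axis) with 95% intervals from edgeR for the 58 tested members, ordered by role and colored by role group, filled where the adjusted p was at most 0.05. In IMQ + H2O against VAS + H2O (left) 25 members are filled, Ccnd2 and Cdkn1b below 0, and in IMQ + XYF against IMQ + H2O (right) none is filled and no interval reaches -1.

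The third comparison, IMQ + XYF against VAS + H2O, sets treated inflamed epidermis beside the same controls. Here 41 members rose and 2 fell, where 28.7% of all 17954 genes passed, 16.7% higher and 12.0% lower. As DEGs, 37 members were higher and 1 lower (Cdkn1b), where 7.64% of all genes were DEGs, 4.58% higher and 3.05% lower. All 12 replication genes were DEGs, 7 of 8 mitotic kinases and checkpoint genes and 7 of 12 chromosome, spindle and cytokinesis genes were DEGs, and both anaphase promoting complex partners were. Of the 41, 18 had not passed in IMQ + H2O against VAS + H2O, and all 23 that had risen there rose here. The median log2 fold change was 1.24, against -0.04 over all genes. Groups did not overlap in 51 of 58 members, and in 47.5% of all genes, 25.1% higher and 22.4% lower. Rrm2 had the smallest adjusted p, with a change of 2.10 (SE 0.22, adjusted p = 0.00155), and Ccne1 the highest log2 fold change of any member, 2.14 (SE 0.28, adjusted p = 0.00279).

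Mki67 rose in this comparison, by 1.24 on the log2 scale (SE 0.37, adjusted p = 0.0469), as did Cdk1 by 1.61 (SE 0.37, adjusted p = 0.0189), Ccna2 by 1.52 (SE 0.36, adjusted p = 0.0204) and Ccnb1 by 1.223 (SE 0.34, adjusted p = 0.0375). The kinases Plk1, Aurkb and Bub1 rose by 1.55 on the log2 scale (SE 0.42, adjusted p = 0.035), 1.40 (SE 0.39, adjusted p = 0.0362) and 1.53 (SE 0.34, adjusted p = 0.0166). Bub1b and Mad2l1 of the checkpoint rose by 1.28 on the log2 scale (SE 0.32, adjusted p = 0.025) and 1.29 (SE 0.27, adjusted p = 0.0147), and Cenpe, a kinetochore motor, had 8.38, 17.9 and 26.9 CPM under VAS + H2O, 25.95, 31.4 and 40.8 under IMQ + H2O and 34.9, 53.05 and 45.3 under IMQ + XYF and rose by 1.33 (SE 0.40, adjusted p = 0.0462). Kif20a, a motor of cytokinesis, had 8.12, 21.7 and 22.7 CPM under VAS + H2O, 23.3, 31.7 and 39.7 under IMQ + H2O and 34.2, 48.3 and 44.0 under IMQ + XYF and rose by 1.27 on the log2 scale (SE 0.37, adjusted p = 0.0444). E2f1 rose by 1.15 on the log2 scale (SE 0.24, adjusted p = 0.013) and Tyms by 0.88 (SE 0.19, adjusted p = 0.0159), while Foxm1, at 1.297 (SE 0.41, adjusted p = 0.0566), did not pass. Ccnd2 fell, with -0.70 on the log2 scale (SE 0.10, adjusted p = 0.00361), and so did Cdkn1b, with -1.01 (SE 0.21, adjusted p = 0.0128). Cdkn1a and Ccnd1 were near the controls, at 0.02 on the log2 scale (95% interval -0.21 to 0.24) and 0.02 (95% interval -0.23 to 0.27). The calls on Mki67, Ccnb1, Plk1, Aurkb, Cenpe, Kif11, Cdc20 and Aurka were lost without VAS + H2O replicate 2 and without each IMQ + XYF library (adjusted p = 0.0535 to 0.126), and Kif20a was lost in the same 4 fits and without VAS + H2O replicate 3 (0.0533 to 0.114). Ccna2 and Bub1b did not pass without VAS + H2O replicate 2, IMQ + XYF replicate 2 or IMQ + XYF replicate 3, and Cdk1 without VAS + H2O replicate 2 or IMQ + XYF replicate 3 (adjusted p = 0.0517 to 0.0736). Cdc6 and Cdt1 were lost in 4 fits and Tyms in 3, each of them without VAS + H2O replicate 1, VAS + H2O replicate 2 or IMQ + XYF replicate 3, at an adjusted p of 0.0505 to 0.0662. Without IMQ + XYF replicate 3, Bub1, E2f1, Cdkn1b, Chek1, Ube2c and Tpx2 were lost as well (adjusted p = 0.05005 to 0.0570), and Tpx2 also without IMQ + XYF replicate 2 (0.0514). With no low-count filter Aurka was lost too (adjusted p = 0.0515). These calls share their control libraries with the first comparison. Without VAS + H2O replicate 2, 28 members passed (20.9% of all genes) and 21 were DEGs (6.11%), and without IMQ + XYF replicate 3, 22 passed (17.4%) and 16 were DEGs (5.38%).

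Other genes of the cycle, outside the 59, were counted from 3 lists. Of 47 other replication genes 34 rose and none fell under imiquimod, where 12.7% of all genes rose and 9.41% fell, with a median log2 fold change of 0.88. Prim2, a subunit of primase, rose by 1.10 on the log2 scale (SE 0.11, adjusted p = 0.00504), and Pold2, of DNA polymerase delta, by 1.082 (SE 0.13, adjusted p = 0.00714). Of 61 other mitosis genes 15 rose and none fell, with a median of 0.79. The centromere proteins Cenph and Cenpm rose by 1.15 on the log2 scale (SE 0.22, adjusted p = 0.0154) and 1.48 (SE 0.28, adjusted p = 0.0158), and the condensin subunit Smc2 by 1.24 (SE 0.24, adjusted p = 0.0162). VAS + H2O replicate 1 was the lowest control in 54 of these 61 genes and in 22 of the 47 replication genes. Of 33 other regulators 8 rose and 2 fell. The repressor E2f7, the partner of E2f8, had the largest change, 3.29 on the log2 scale (SE 0.50, adjusted p = 0.00995), from 2.58 to 25.3 CPM in mean. E2f4 and its dimer partner Tfdp1 rose by 0.72 on the log2 scale (SE 0.08, adjusted p = 0.00629) and 0.71 (SE 0.10, adjusted p = 0.00876). Tfdp2, a further dimer partner, and the pocket protein Rbl2, which keeps cycle genes silent in resting cells, fell, with -1.76 on the log2 scale (SE 0.28, adjusted p = 0.0114) and -0.61 (SE 0.14, adjusted p = 0.0252).

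In IMQ + XYF against IMQ + H2O none of the genes of these 3 lists passed in edgeR. Unadjusted p under 0.05 were found for 0 replication, 4 mitosis and 2 regulator genes (5.43% of all genes had one), and median log2 fold changes were 0.10, 0.25 and 0.02. The smallest adjusted p belonged among mitosis genes to Ckap2, a spindle protein, at a log2 fold change of 0.48 (SE 0.14, adjusted p = 0.639), Ncapg2 at 0.25 (SE 0.08, adjusted p = 0.751) and Smc2 at 0.26 (SE 0.10, adjusted p = 0.818). Among regulators it belonged to Cdkn1c (p57), at a log2 fold change of 1.42 (SE 0.40, adjusted p = 0.605), Cdkn2c at 0.26 (SE 0.10, adjusted p = 0.817) and Lin37 at -0.26 (SE 0.12, adjusted p = 0.974). Among replication genes it belonged to Brca2, Rfc4 and Orc2, with log2 fold changes of -0.30, 0.26 and 0.01, and Orc2 shared its adjusted p of 0.9999 with other genes of the list. In IMQ + XYF against VAS + H2O, 40 of 47 replication genes and 34 of 61 mitosis genes rose and none fell, while 12 of 33 regulators rose and 3 fell (Rbl2, Cdkn2b and Rb1), against 16.7% of all genes higher and 12.0% lower. Prim2 and Blm were among the leading replication genes, at log2 fold changes of 1.09 and 0.84, and Cenpm, Cks1b and Bub3 the mitosis genes, at 1.91, 1.31 and 0.62. E2f7, E2f4 and Tfdp1 led the regulators, at 3.29, 0.68 and 0.70.

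The 14 p53 target genes were mixed in direction. Under imiquimod 4 rose and 2 fell, where 22.1% of all genes passed, with a median log2 fold change of -0.07. Plk2 and Phlda3 rose, by 1.004 on the log2 scale (SE 0.19, adjusted p = 0.0151) and 0.49 (SE 0.09, adjusted p = 0.0163). Sesn1 and Trp53inp1, stress-response genes, fell, with -0.998 on the log2 scale (SE 0.18, adjusted p = 0.0146) and -1.68 (SE 0.37, adjusted p = 0.0236). With XYF none passed against IMQ + H2O in edgeR and 1 had an unadjusted p under 0.05, the smallest adjusted p being that of Mdm2, the ligase that degrades p53, at -0.19 on the log2 scale (SE 0.07, adjusted p = 0.818). Next came Eda2r and Plk3, at log2 fold changes of 0.43 and -0.43. Against VAS + H2O, 3 rose and 3 fell in IMQ + XYF, where 28.7% of all genes passed, with Plk2 at 0.95, Sesn1 at -1.19 and Trp53inp1 at -1.99.

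Some members share exon bases with other genes. Exons of 20 members overlap another gene, and for 8 at least 10% of exon bases are shared, each with a gene on the opposite strand: Kif20a with Cdc23, Ccnd1 with LTO1, Ube2c with Tnnc2, Cdk4 with Tspan31, Ccne2 with Ints8, Cdc25c with Gm3550, Ccna2 with Exosc9 and E2f8 with Gm2788. The shared part ran from 11.2% (E2f8) to 29.3% (Kif20a) of exon bases. The labels call the libraries strand specific, the kit that the methods name does not mark strand by default, and how the counting used strand is not given in the sources used here, so values of these 8 are less certain. Ccnb1, Ccnb2, Pcna and Tyms have a pseudogene named after them in the annotation, and the split of reads between a gene and its copy is uncertain.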

How the data were processed

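Epidermal ear sheets of 3 groups with 3 libraries each were analysed, grouped by their deposited titles. The authors aligned reads with STAR (version 2.5 per the submitters' processing notes) to GRCm38 and deposited whole-number counts per gene with no normalization. The counting tool and its use of strand are not given in the sources used here. From these counts, a separate edgeR fit was made for the 6 libraries of each comparison, using version 4.0.16 in R 4.3.3 (TMM, filterByExpr defaults, two-sided quasi-likelihood test), with p adjusted by Benjamini-Hochberg over all genes tested. The study's methods use DESeq2, which was run as an alternative (version 1.42.0). Rose and fell stand for an adjusted p of at most 0.05, and DEGs also changed by 1 or more on the log2 scale, up or down. SEs came from the test statistic. CPM used TMM-scaled totals over the 18492 genes past the filter in 9 libraries, and level scores are means of log2(CPM + 0.5). CPM per kilobase used the union of annotated exons.

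No 2 replicates agreed within sampling noise (chi-square per gene 26.1 to 82.7). The test was run on simulated counts with the same spread for all genes and with larger changes than most members had. That run does not show how the test performs on these libraries. The members and gene lists were chosen with earlier results of these data known. Genes named with their values were 30 members chosen by role, the 5 smallest adjusted p and every DEG of each comparison, members called against their role group, and the 3 smallest adjusted p of each other list, apart from 1 gene that is not reported here. Values per library were given for most of these, and those of the rest as means or changes. Alternatives were other scalings and filters, a fit on all 9 libraries, a replicate block and leaving out each library.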

Additional observations from a re-analysis of the deposited data

How the results depend on the processing

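Counts of cell cycle genes depended most on single libraries. In IMQ + H2O against VAS + H2O, leaving out 1 library at a time gave 8 to 23 DEGs, 15 to 28 genes past the adjusted p and a median log2 fold change of 0.73 to 1.25. In IMQ + XYF against VAS + H2O the ranges were 16 to 44, 22 to 47 and 0.98 to 1.54, and in IMQ + XYF against IMQ + H2O the counts were 0 in edgeR and the median 0.12 to 0.41. At the low ends of IMQ + H2O against VAS + H2O, 4.68% of all genes were DEGs (without VAS + H2O replicate 1) and 7.77% passed (without VAS + H2O replicate 2). At those of IMQ + XYF against VAS + H2O, both without IMQ + XYF replicate 3, these were 5.38% and 17.4%. The highest counts came without VAS + H2O replicate 3. The share of all genes in those fits is not given here, so a rise particular to the members cannot be read from them. A fit with 2 libraries in a group has fewer samples. DESeq2 called 39 genes at the adjusted p in IMQ + H2O against VAS + H2O, against 25 in edgeR, and the cause was not tested. Other scalings, filters and the fit on all 9 libraries left these counts within 1.5 times.

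Over all genes past the filter, correlations of deviations between libraries of equal replicate number ran from -0.13 to 0.11. They were 0.0067 to 0.029 between VAS + H2O and IMQ + H2O, so equal numbers showed no clear pairing over all genes. The members partly shared an order. Replicate 1 was the lowest library in 38, 38 and 50 of 58 members under VAS + H2O, IMQ + H2O and IMQ + XYF. Replicate 3 was the highest in 55, 51 and 27, and IMQ + XYF replicate 2 in 30. What lies behind this order was not tested. With a replicate block, 37, 0 and 48 cell cycle genes passed the adjusted p (16.7%, 0% and 20.9% of all genes did) and 26, 0 and 41 were DEGs (6.11%, 0% and 6.20%), in the order of IMQ + H2O against VAS + H2O, IMQ + XYF against IMQ + H2O and IMQ + XYF against VAS + H2O, with medians of 1.004, 0.27 and 1.34, and 17 genes of the second had an unadjusted p under 0.05 (5.46% of all genes). Not every library correlated best with its own number.

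Signs turned only where no call was made. In IMQ + XYF against IMQ + H2O, Cdt1 (log2 fold change 0.0041) was at -0.0022 in DESeq2, -0.0029 with RLE size factors, -0.0014 with at least 10 counts in every library and -0.0017 in the fit on all 9 libraries. Leaving out 1 library gave -0.13 to 0.12 for Cdt1, -0.33 to 0.027 for Cdkn1b, -0.073 to 0.35 for Rrm2, -0.013 to 0.39 for Aurkb, -0.12 to 0.028 for Ccne2 and -0.18 to 0.18 for E2f8. In IMQ + XYF against VAS + H2O it gave -0.041 to 0.097 for Cdkn1a and -0.080 to 0.11 for Ccnd1.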
